A study of Mus musculus with 8 samples.

Results

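Fibroblast matrix genes are the genes that connective tissue cells use to build, trim and hold on to the collagen matrix around them. A list of 35 such genes was followed over all 8 arrays of the study, with the brightest probe standing for each gene. Probes carrying the symbol were found for 33 genes (Col6a3 and Fbn1 had none), and 29 were detected on at least 1 array at a detection p under 0.01, out of 8983 genes detected and 16593 genes with a probe. Pdgfra entered at the faint end of detection, with a log2 signal of 5.85 in wt ESCs, and Pdgfrb, at 5.04 in Gcnf-deficient ESCs, was the brightest gene left out. Col5a2, Postn and S100a4 were likewise detected on no array.

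The arrays held RNA of Gcnf-deficient (Gcnf -/-) and wt (Gcnf +/+) mouse embryonic stem cells (ESCs) carrying the Oct4-GFP(ΔPE) reporter, of putative primordial germ cells (PGCs) sorted on Oct4-GFP after 12 and 15 days of differentiation of each ESC genotype, and of epiblast stem cells (EpiSCs). Each condition had 1 array, other than EpiSCs with 2, and the labels give strain C57BL/6 to all samples. Per the methods, the wt ESCs were of both sexes and the Gcnf -/- ESCs female, and all were kept on gamma-irradiated mouse embryonic fibroblasts (MEFs) with LIF, while PGCs formed on gelatin without MEFs or LIF. The sources used here do not name the ESC line behind each array, the EpiSC culture or any removal of MEFs before ESC RNA was taken, so genotype, line and culture cannot be told apart between the 2 ESC arrays.

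Fibrillar collagens form the ropes of connective tissue. They are folded in the cell with the help of the chaperone Serpinh1 (HSP47), trimmed outside it with the help of Pcolce, crosslinked by lysyl oxidases, spaced by small leucine-rich proteoglycans and cut by metalloproteinases, which Timp proteins hold in check. Undifferentiated ESCs and germ cells lay down little of this fibrillar matrix, whereas embryonic fibroblasts make much of it. In bulk RNA, fewer cells of a type and less RNA per cell cannot be told apart.

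Each array detected 9939 to 11273 of its probes (38.7% to 43.9%), and median raw signals ran from 138 to 189, with wt ESCs the brightest. The 2 EpiSC arrays differed with an SD of 0.26 in log2 over 9638 probes detected on both, and by at most 0.61 in the 12 matrix genes detected on both. The labels do not say whether the pair came from separate cultures, so this spread may be technical, it says nothing of the spread between separate cultures or lines, and p-values measure only the spread between these samples. The limit of 4-fold (2 in log2) is used as a description. All 9 pluripotency markers were detected on each ESC and PGC array, with a summed log2 signal of 16.30 in Gcnf-deficient ESCs and 16.38 in wt ESCs.

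The matrix genes were brightest in wt ESCs. By the brightest probe, all 29 were detected there, against 21 in Gcnf-deficient ESCs, 12 in day-12 PGCs of each genotype, 15 in Gcnf-deficient and 14 in wt day-15 PGCs, and 12 and 13 on the EpiSC arrays. In 25 of 29 the wt ESC signal was the highest of the 8, for which the share of all genes was not counted. In 15 it was over 4-fold higher than on each of the other 7 arrays, which was true of 40 of all detected genes (0.445%). No matrix gene stood over 4-fold above all other conditions in any other condition. Of the 15, 10 were undetected on every PGC and EpiSC array, and 5 (Col5a1, Bgn, Loxl1, Timp2 and Thy1) were detected on at least 1 of them. Loxl1, at 4.26-fold, lay just inside this limit, and Fbln2, at 3.79-fold, just outside it. Without background correction 9 of the 15 remained over the limit. All of these counts rest on 1 wt ESC array, and the list was chosen with earlier results of these data known. Of the 29, 7 (Col1a2, Col6a1, Col6a2, Lum, Ogn, Tnc and Thbs1) had a brightest probe detected in wt ESCs alone. They entered through that array, where a high wt ESC signal was favoured, so in these counts they are no support. Col6a1, Lum, Ogn, Tnc and Thbs1 are among the 15.

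**Figure D1:**
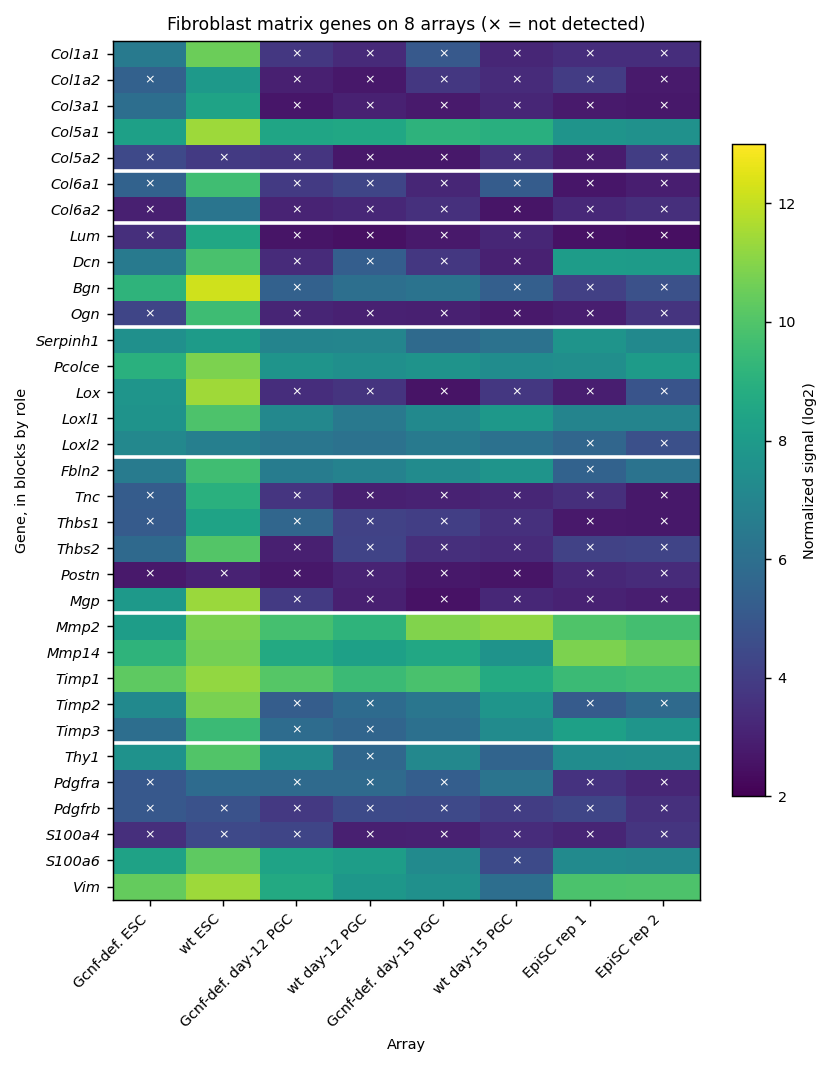
Normalized log2 signal of the 33 fibroblast matrix genes with a probe (rows, in blocks by role) on the 8 arrays (columns), with × for a probe not detected. The wt ESC column is the brightest in 25 of the 29 detected genes (share of all genes not counted). The collagen, proteoglycan and glycoprotein blocks are mostly undetected on PGC and EpiSC arrays.

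Collagen I is the main collagen of skin, bone and tendon. Its gene Col1a1 gave a log2 signal of 6.49 in Gcnf-deficient ESCs and 10.52 in wt ESCs, and lay below detection on the other 6 arrays (3.19 to 5.05). The Gcnf-deficient ESC signal was 16.3-fold lower. Col1a2, which encodes the partner chain, was detected in wt ESCs alone, at 7.94 against undetected signals of 2.71 to 5.40 elsewhere, a margin of at least 3.75-fold over each of the other arrays. Col3a1, the collagen of stretchable tissue, gave 5.97 in Gcnf-deficient ESCs and 8.39 in wt ESCs, with undetected signals of 2.65 to 3.19 elsewhere. The other Col3a1 probe was detected on no array (5.72 in wt ESCs and 2.93 in Gcnf-deficient ESCs), so Col3a1 rests on 1 probe. By the brightest probes both ESC arrays carried Col1a1 and Col3a1 transcripts, and neither gene was detected in PGCs or EpiSCs.

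Col5a1, whose product starts fibrils and limits their width, behaved otherwise. It gave 8.23 in Gcnf-deficient ESCs and 11.39 in wt ESCs. In PGCs it gave 8.47 and 8.55 on day 12 (Gcnf-deficient, then wt) and 9.13 and 8.95 on day 15. The EpiSC arrays gave 7.70 and 7.56. Col5a1 was thus detected on every array, and apart from wt ESCs its signals spanned 7.56 to 9.13. Col5a2, its partner, was below detection throughout, at 2.72 to 4.44.

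Collagen VI forms beaded filaments around cells. The brightest Col6a1 probe gave 9.61 in wt ESCs, with undetected signals of 2.65 to 5.45 on the other arrays, at least 12.0-fold below. A second Col6a1 probe was detected on both ESC arrays, at 5.74 in Gcnf-deficient ESCs and 9.04 in wt ESCs, and on no other, while the last was detected on none. In Gcnf-deficient ESCs Col6a1 was thus detected by 1 probe only, close to the lowest detected signal of that array (5.70). Col6a2 was detected in wt ESCs alone at 6.28, close to the detection limit, so its margin was bounded only at 1.19-fold.

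Small leucine-rich proteoglycans coat collagen fibrils and set their spacing. Lum gave 8.54 and Ogn 9.58 in wt ESCs, and neither was detected on any other array (2.46 to 3.49 for Lum, 2.73 to 4.31 for Ogn). The other Ogn probes were detected on no array, so Ogn rests on 1 probe. Bgn, the brightest of the matrix genes, gave 9.16 in Gcnf-deficient ESCs and 12.19 in wt ESCs. In PGCs Bgn was detected on 2 arrays, at 6.01 (wt day 12) and 6.21 (Gcnf-deficient day 15), while the other PGC arrays gave 5.42 (Gcnf-deficient day 12) and 5.33 (wt day 15) and the EpiSC arrays 4.09 and 4.73, all undetected. Dcn, which binds collagen and growth factors, was at 8.09 and 8.02 on the EpiSC arrays, at 6.47 in Gcnf-deficient ESCs and at 9.84 in wt ESCs. It was undetected on all 4 PGC arrays (2.99 to 5.27), so by this brightest probe EpiSCs and ESCs shared the transcript and PGCs lacked a detectable level. The other Dcn probe was detected in wt ESCs alone, at 7.77. It was undetected in EpiSCs (4.34 and 5.69) and in Gcnf-deficient ESCs (3.58), so Dcn in these cells rests on 1 probe.

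The 3 lysyl oxidases differed from one another. Lox, which starts the crosslinks, gave 7.74 in Gcnf-deficient ESCs and 11.43 in wt ESCs, with undetected signals of 2.57 to 4.85 elsewhere. Loxl1, which acts mainly on elastic fibres, was detected on every array, at 7.64 in Gcnf-deficient ESCs and 9.94 in wt ESCs, at 7.13 (Gcnf-deficient) and 6.45 (wt) on day 12, at 7.20 and 7.85 on day 15, and at 6.97 and 6.98 in EpiSCs. Loxl2, a lysyl oxidase of basement membrane, was not high in wt ESCs. It gave 7.12 in Gcnf-deficient ESCs and 6.73 in wt ESCs, 6.31 and 6.16 on day 12, 6.54 and 6.10 on day 15, and undetected signals of 5.63 and 4.67 in EpiSCs.

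Serpinh1 and Pcolce serve collagen before and during its assembly, and both were detected on all 8 arrays. Serpinh1 gave 7.50 in Gcnf-deficient ESCs and 8.05 in wt ESCs, 6.97 (Gcnf-deficient) and 7.02 (wt) on day 12, 5.78 and 6.14 on day 15, and 7.70 and 7.23 in EpiSCs. Its wt ESC signal was 1.27-fold above the next array. Pcolce gave 8.99 in Gcnf-deficient ESCs and 10.84 in wt ESCs, 7.69 and 7.47 on day 12, 7.67 and 7.35 on day 15, and 7.45 and 8.06 in EpiSCs. In Gcnf-deficient ESCs Pcolce was 3.60-fold and Serpinh1 1.46-fold lower. The listed collagen biosynthesis genes outside the 35 (prolyl and lysyl hydroxylases, export factors and others) were followed beside them, with 12 of 20 detected and none that stood over 4-fold above every other array in wt ESCs. Their summed log2 signal was 13.36 in Gcnf-deficient ESCs and 13.40 in wt ESCs.

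Matrix glycoproteins tie fibres to cells or act on cells directly. Tnc, an anti-adhesive protein of growing and healing tissue, gave 9.0 and Thbs1, an activator of TGF-beta, gave 8.38 in wt ESCs. Neither was detected elsewhere (2.70 to 5.19 for Tnc, 2.70 to 5.62 for Thbs1). Of the 6 Tnc probes, 2 were detected, both in wt ESCs alone. Thbs2 gave 5.77 in Gcnf-deficient ESCs and 10.06 in wt ESCs, and undetected signals of 2.95 to 4.26 elsewhere. Mgp, an inhibitor of calcification, gave 7.96 in Gcnf-deficient ESCs and 11.33 in wt ESCs, with 2.55 to 3.89, undetected, elsewhere. Fbln2, a fibulin of elastic fibres and basement membrane, was the member of this block that persisted, by the brightest of its 3 probes. Another Fbln2 probe was detected in wt ESCs alone, at 5.83, close to the detection limit, and the last on no array. The brightest Fbln2 probe gave the values that follow. It gave 6.59 in Gcnf-deficient ESCs and 9.63 in wt ESCs, 6.62 and 6.86 on day 12, 7.29 and 7.70 on day 15 (Gcnf-deficient, then wt), and 5.48 (undetected) and 6.18 in EpiSCs.

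Of the 5 proteases and inhibitors, all detected, Timp2 alone stood over 4-fold above every other array in wt ESCs. Mmp2 (gelatinase A) gave 8.13 in Gcnf-deficient ESCs and 10.83 in wt ESCs, 9.74 (Gcnf-deficient) and 9.14 (wt) on day 12, 10.90 and 11.15 on day 15, and 9.98 and 9.71 in EpiSCs. Its highest signal was therefore in wt day-15 PGCs. Mmp14, the membrane protease that activates Mmp2, gave 9.15 in Gcnf-deficient ESCs and 10.70 in wt ESCs, 8.67 and 8.23 on day 12, 8.59 and 7.65 on day 15, and 10.83 and 10.46 in EpiSCs, so EpiSC mean and wt ESC signal were 1.04-fold apart, less than the gap within the EpiSC pair. Timp1, a secreted inhibitor, gave 10.25 in Gcnf-deficient ESCs and 11.20 in wt ESCs, 10.10 and 9.49 on day 12, 9.85 and 8.74 on day 15, and 9.49 and 9.63 in EpiSCs.

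The other inhibitors were detected in some conditions only. Timp2, which also takes part in Mmp2 activation, gave 7.22 in Gcnf-deficient ESCs and 10.81 in wt ESCs, 6.33 and 7.74 in Gcnf-deficient and wt day-15 PGCs, and undetected signals of 5.17 to 5.86 on the day-12 and EpiSC arrays. Timp3, which stays bound to the matrix, gave 5.99 in Gcnf-deficient ESCs and 9.49 in wt ESCs, 6.04 in Gcnf-deficient and 7.29 in wt day-15 PGCs, and 8.23 and 7.73 in EpiSCs. On day 12 it was undetected (5.90 and 5.59). The other Timp3 probe was detected on no array (3.18 and 4.34 in EpiSCs), so Timp3 rests on 1 probe. Timp2 and Timp3 were thus detected in PGCs of both genotypes on day 15 and in neither genotype on day 12. For Timp3 in Gcnf-deficient PGCs this turned on the lowest detected signal, 5.91 on day 12 and 5.67 on day 15. Its own signals of 5.90 and 6.04 hardly differed.

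Genes of the fibroblast surface and cell body were mixed. Thy1, a surface glycoprotein of fibroblasts and of other cells, gave 7.59 in Gcnf-deficient ESCs and 10.01 in wt ESCs, 7.28 in Gcnf-deficient and 5.68 (undetected) in wt day-12 PGCs, 7.15 in Gcnf-deficient and 5.54 in wt day-15 PGCs, and 7.37 and 7.38 in EpiSCs. Vim, the intermediate filament of mesenchymal cells, gave 10.42 in Gcnf-deficient ESCs and 11.39 in wt ESCs, 8.67 and 7.84 on day 12, 7.51 and 5.99 on day 15, and 9.88 and 9.94 in EpiSCs. S100a6, a calcium-binding protein, was detected on every array but wt day 15 (4.48), at 7.14 to 10.25. Pdgfra, the PDGF receptor of mesenchyme and primitive endoderm, was detected on 2 arrays only, at 5.85 in wt ESCs and 6.25 in wt day-15 PGCs. Its undetected signals were 5.03 in Gcnf-deficient ESCs, 5.82 and 5.80 on day 12, 5.28 in Gcnf-deficient day-15 PGCs, and 3.61 and 3.19 in EpiSCs, so the PGC values lay within a narrow band around the detection limit. Pdgfrb (3.55 to 5.04) and S100a4 (2.95 to 4.43), both commonly used to mark fibroblasts, were undetected on all 8 arrays, wt ESCs included, as was Postn (2.63 to 3.34).

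**Figure D2:**
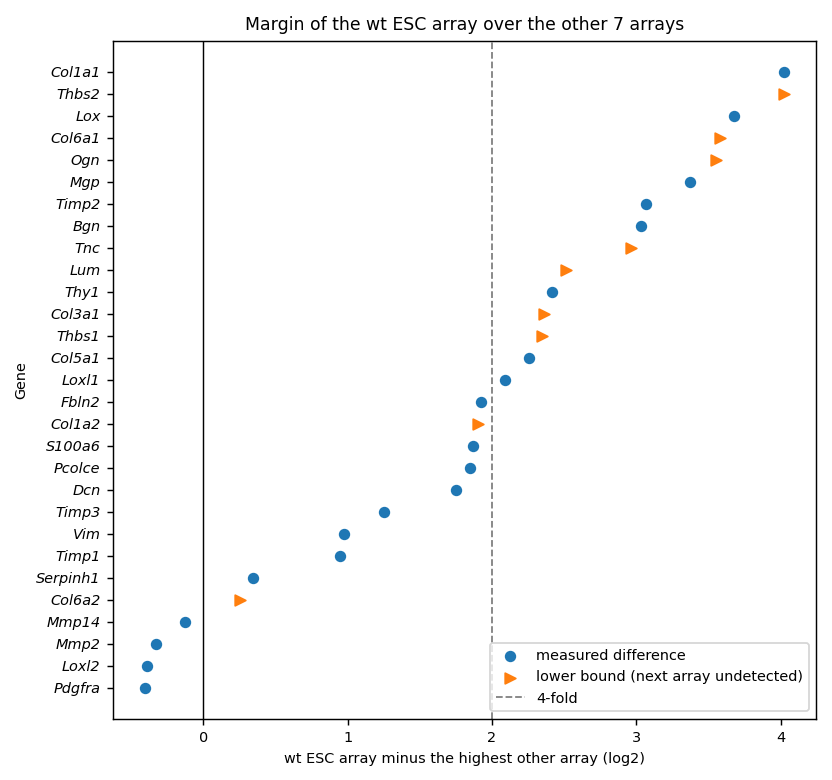
Difference in log2 between the wt ESC array and the highest of the other 7 arrays for each of the 29 detected matrix genes, with circles for measured differences, triangles for lower bounds where the gene was undetected on the array that sets the limit, and a dashed line at 4-fold. There are 15 genes right of the line, led by Col1a1 (16.3-fold) and Thbs2 (at least 16.3-fold), and 4 genes (Mmp14, Mmp2, Loxl2 and Pdgfra) left of 0.

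By detection of any probe, 6 genes were seen in wt ESCs alone (Col1a2, Col6a2, Lum, Ogn, Tnc and Thbs1), 6 on both ESC arrays alone (Col1a1, Col3a1, Col6a1, Lox, Thbs2 and Mgp) and 8 on all 8 arrays (Col5a1, Serpinh1, Pcolce, Loxl1, Mmp2, Mmp14, Timp1 and Vim). Col6a1 and Thbs2 lay close to the detection limit in Gcnf-deficient ESCs, so their place in this split turns on that limit. The remaining 9 came and went. In all, 17 of the 29 were detected on some PGC or EpiSC array. None of the 17 was over 4-fold above its wt ESC signal there, and few came within 2-fold of it. These were Loxl2 in each PGC condition, Mmp2 in day-15 PGCs of both genotypes and in EpiSCs, Pdgfra in wt day-15 PGCs, and Mmp14 and Serpinh1 in EpiSCs.

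As a description over 8 arrays that share 1 bright wt ESC array, each matrix gene was correlated with the other 28. The mean Pearson r was highest for Tnc (0.780), Ogn (0.778) and Lum (0.771), and lowest for Mmp2 (0.084), Pdgfra (0.167) and Loxl2 (0.348). Among detected genes outside the list, the profiles most like the 29 were those of Ifit3, an interferon-induced gene (mean r of 0.790), Cav1 and Cavin2, both of caveolae (0.788 and 0.782), Prelp, a small leucine-rich proteoglycan (0.787), and Lyz1, a lysozyme gene (0.785). Cav1 gave 5.51 in Gcnf-deficient ESCs and 9.74 in wt ESCs, and Ifit3 gave 5.55 and 10.06 on the same arrays.

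Promoters of genes that stood high in wt ESCs and of genes detected throughout were set side by side, to show their letters and not as a test. RefSeq windows (GRCm38.p6, the 250 bases before the transcription start) were matched for 23 of the 35 genes. The letters TATAAA, on either strand, were in 5 of 8 windows (62.5%) of genes over 4-fold higher in wt ESCs and not detected on all 8 arrays, in 1 of 6 windows (16.7%) of genes detected on all 8, and in 12.4% of 32851 RefSeq windows. The GC box, GGGCGG, was in 4 of 8 windows of the first set, in 83.3% of the second and in 32.7% of all. The CCAAT box, spelled as its name, was in 2 of 8, in 3 of 6 and in 33.8% of all. Of the 5 windows with TATAAA, 2 belong to Tnc and overlap. These are letter matches in few windows, and no binding was measured. Shown are the last 150 bases before the start of 2 genes detected on the ESC arrays alone, Col3a1 (chr1:45311388-45311537, plus strand) and Thbs2 (chr17:14694263-14694412, minus strand), and of 3 genes detected throughout, Serpinh1 (chr7:99353240-99353389, minus strand), Mmp14 (chr14:54431448-54431597, plus strand) and Vim (chr2:13574161-13574310, plus strand). Capitals mark these motifs on either strand, and in Mmp14 the last ones overlap.
Col3a1: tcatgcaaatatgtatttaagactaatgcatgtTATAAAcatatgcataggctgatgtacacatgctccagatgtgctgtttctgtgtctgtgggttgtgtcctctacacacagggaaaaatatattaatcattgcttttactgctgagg
Thbs2: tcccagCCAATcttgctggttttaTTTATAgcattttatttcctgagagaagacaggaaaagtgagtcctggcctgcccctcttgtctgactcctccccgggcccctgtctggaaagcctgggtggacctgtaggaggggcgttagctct
Serpinh1: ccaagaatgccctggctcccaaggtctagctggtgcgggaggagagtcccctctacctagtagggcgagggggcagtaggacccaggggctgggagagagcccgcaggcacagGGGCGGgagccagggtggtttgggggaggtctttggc
Mmp14: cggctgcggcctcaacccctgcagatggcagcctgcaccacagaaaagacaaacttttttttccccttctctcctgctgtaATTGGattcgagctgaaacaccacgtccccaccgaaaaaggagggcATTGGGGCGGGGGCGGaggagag
Vim: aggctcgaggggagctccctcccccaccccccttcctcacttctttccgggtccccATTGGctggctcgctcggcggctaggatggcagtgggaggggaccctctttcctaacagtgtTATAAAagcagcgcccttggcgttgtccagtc
Within these 150 bases Col3a1 and Thbs2 hold the TATA letters and no GC box, Serpinh1 and Mmp14 the reverse, and Vim, which is detected throughout, holds TATAAA too. The examples do not stand for their sets. In the windows of 250 bases, Bgn and Timp2 of the first set hold a GC box and no TATAAA, Tnc holds both and Col6a1 neither.

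Gcnf-deficient ESCs were set against wt ESCs before differentiation, a pair in which genotype cannot be told apart from line and culture. Of the 29 genes, 28 were lower in Gcnf-deficient ESCs and Loxl2 was 1.31-fold higher. The share of all genes that were lower was not counted. Over 4-fold lower were 20 of 29, against 1.38% of 7835 genes compared. By the brightest probe Col1a2, Col6a1, Col6a2, Lum, Ogn, Tnc, Thbs1 and Pdgfra were undetected in Gcnf-deficient ESCs. A lower value was built in for these, so they are no support. All of them but Col6a2 and Pdgfra are counted among the 20. Thbs2 was 19.6-fold, Col1a1 16.3-fold, Lox 12.8-fold and Timp2 12.1-fold lower, and Col6a1 at least 15.0-fold lower by its brightest probe. The Col6a1 probe detected on both ESC arrays had a smaller difference, at 5.74 in Gcnf-deficient ESCs and 9.04 in wt ESCs. At the other end Vim was 1.97-fold, Timp1 1.93-fold and Serpinh1 1.46-fold lower. The 21 genes detected on both ESC arrays had a median difference of −2.70 (−4.29 to 0.39), against −0.02 over 6759 genes detected on both. The 5 genes whose brightest probe was seen on both ESC arrays alone had a median of −3.68 and the 8 genes detected on all arrays one of −1.70. With 1 array a side, this pair has no replicate check.

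Other lists moved unequally between the same arrays. Of 13 further fibroblast matrix genes compared, 7 were over 4-fold lower in Gcnf-deficient ESCs (median −2.20), as were 2 of 5 smooth muscle contractile genes (median −1.46). Of 6 endoderm markers compared, 3 were over 2-fold lower in Gcnf-deficient ESCs (median −1.02), and 1 of them, Col4a2, a basement membrane collagen, was over 4-fold lower. Some differences ran the other way, with 1 of 9 pluripotency, 1 of 6 germ cell and 1 of 5 primed epiblast markers over 4-fold higher in Gcnf-deficient ESCs. These were Tdgf1 (11.73 in Gcnf-deficient ESCs and 8.49 in wt ESCs), Stra8 (10.14 and 7.47) and Otx2 (11.70 and 8.46 on the same arrays). Acta2, smooth muscle actin, which fibroblasts in culture also make, gave 8.71 in Gcnf-deficient ESCs and 13.15 in wt ESCs. None of the 12 other collagen biosynthesis genes was over 4-fold apart in either direction (median 0.10). Of 16 mesenchyme transcription factors, 3 could be compared, none was over 4-fold apart and 1 was over 2-fold lower in Gcnf-deficient ESCs. They were Zeb1 (7.18 in Gcnf-deficient ESCs and 8.72 in wt ESCs), Twist1 (6.45 and 6.85) and Twist2 (3.01, undetected, and 5.92). Prrx1, Tcf21 and Osr1, which mark fibroblast precursors, were among the 9 undetected on all arrays. Endothelial markers had 3 of 8 detected in both (summed log2 signal 9.58 in Gcnf-deficient ESCs and 9.43 in wt ESCs), and 1 of 8 macrophage markers, Lyz2, was detected, in wt ESCs alone. The part of cells other than ESCs in these differences was not tested.

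**Figure D3:**
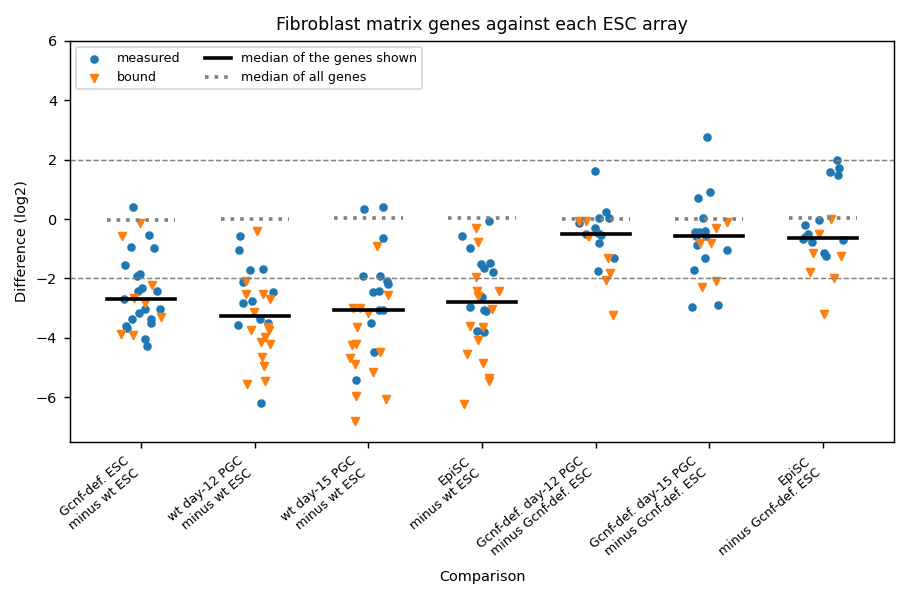
Log2 differences of the matrix genes in 7 comparisons with an ESC array (circles, measured; triangles, bounds where the dimmer side was undetected), with the median of the genes shown (black bar), the median of all genes compared (dotted grey bar) and dashed lines at 4-fold. Medians lie between −3.25 and −2.70 in the 4 comparisons that use the wt ESC array, and between −0.63 and −0.52 in the 3 that use the Gcnf-deficient ESC array.

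Most matrix genes had lower signals in wt PGCs than in wt ESCs. The PGCs formed without MEFs or LIF and were sorted on GFP. Differentiation, culture and sorting thus cannot be told apart in any comparison of PGCs with ESCs. Of 29, 23 were over 4-fold lower in wt day-12 PGCs than in wt ESCs (1.33% of all genes) and 23 in wt day-15 PGCs (3.0%). By the brightest probe 12 of the 29 were detected on ESC arrays alone, where a fall was built in, so these are no support. The Gcnf-deficient counts were 2 of 21 on day 12 (0.350%) and 4 of 21 on day 15 (0.507%). The genes were Bgn and Mgp on day 12, and on day 15 Bgn (7.74-fold), Vim (7.50-fold), Mgp (at least 4.87-fold) and Lox (at least 4.21-fold). Mmp2 was higher in Gcnf-deficient PGCs than in Gcnf-deficient ESCs, 3.04-fold on day 12 and 6.81-fold on day 15, where it was the 1 matrix gene over 4-fold higher (1.48% of all genes). The wt comparisons share the wt ESC array and the Gcnf-deficient ones share the Gcnf-deficient ESC array. The fold that undetected genes could reach was limited by the ESC signal, which was low for several genes in Gcnf-deficient ESCs (5.77 for Thbs2, 5.97 for Col3a1).

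Taking days and genotypes together, 3 of the 29 genes fell in PGCs relative to ESCs and none rose (limma with genotype as a block, Benjamini-Hochberg adjusted over 12717 probes), while 0.0708% of all probes fell. They were Mgp, at least 15.3-fold lower (adjusted p = 0.0492), Lox, at least 14.7-fold lower (adjusted p = 0.0470), and Col3a1, at least 2.78-fold lower (adjusted p = 0.0470). The Col3a1 call rests on its brightest probe, since its other probe was detected on no array. All 3 were undetected on every PGC array and were among 13 genes that entered the test through an ESC array alone, where a fall was built in, so their number supports nothing about the list. Of the 16 genes detected on at least 1 array of both PGCs and ESCs, none passed, and 10 were lower at an unadjusted p under 0.05, against 7.85% of the probes detected in both. Bgn (−4.93 ± 0.72 SE, adjusted p = 0.0607) and Vim (−3.40 ± 0.72, adjusted p = 0.0977) missed the threshold, as did Mmp2 (0.75 ± 0.84, adjusted p = 0.657), which had a positive difference. The test uses undetected signals as they stand. All 3 calls were lost without the wt ESC array (adjusted p = 0.256 for each), without the day-12 or the day-15 arrays, and without the genotype block.

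Within PGCs the genotypes lay closer together. On day 12, none of 13 matrix genes compared was over 4-fold apart (0.145% of all genes were higher and 0.410% lower). Over 2-fold apart was 1 gene (2.96% of all genes were higher and 3.40% lower), Thy1, at least 2.66-fold higher in Gcnf-deficient PGCs. On day 15, none of 16 was over 4-fold apart (2.11% of all genes were higher and 0.516% lower). Over 2-fold higher in Gcnf-deficient day-15 PGCs were 4 genes (11.5% of all genes were), S100a6 (at least 3.74-fold), Thy1 (3.06-fold), Vim (2.88-fold) and Timp1 (2.16-fold), and over 2-fold lower were Timp2 (2.65-fold) and Timp3 (2.37-fold), a count of 2 beside 8.18% of all genes. With so few genes none of these counts, on either day, stands clear of its background. Vim and Thy1 were higher in Gcnf-deficient PGCs on both days and lower in Gcnf-deficient ESCs.

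Across the 3 stages, no matrix gene passed the test of genotype (limma with stage as a block, smallest adjusted p = 0.273), and 0% of 12717 probes fell while 1 rose. At an unadjusted p under 0.05, 3 of 29 were lower in Gcnf-deficient cells, Col6a1, Timp2 and Lox, against 6.74% of probes. The Col6a1 probe was detected on none of 3 Gcnf-deficient and 1 of 3 wt arrays and Lox on 1 of 3 in each, so both rest largely on signals that were not above background. Timp2 was detected on 2 of 3 arrays of each genotype (−1.87 ± 0.58 SE). Arrays of other stages stood in for replicates, leaving 2 residual degrees of freedom.

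From day 12 to day 15 in wt PGCs, 1 of 16 matrix genes was over 4-fold higher (0.360% of all genes) and 1 over 4-fold lower (2.17%). Mmp2 was 4.05-fold higher on day 15 and S100a6 at least 6.70-fold lower. Next came Timp2 (at least 3.67-fold), Timp3 (at least 2.69-fold) and Loxl1 (2.65-fold), all higher, and Vim, 3.61-fold lower. In Gcnf-deficient PGCs none of 15 was over 4-fold apart between the days, nor were more than 0.0261% of all genes higher or 0% lower.

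EpiSCs, a pluripotent cell type of the implanted embryo, were compared with the PGCs to see which matrix genes appear outside the ESC arrays. Of 17 genes tested, 4 rose (16.1% of all probes did) and 5 fell (16.9%) in EpiSCs (limma, 2 EpiSC against 4 PGC arrays, adjusted over 12752 probes). Of the 12 genes detected on at least 1 array of both EpiSCs and PGCs, 3 rose and 2 fell. The others passed with one side undetected throughout, and for these only a bound can be given. Dcn averaged 8.06 ± 0.05 in EpiSCs (SD, n = 2) and was undetected on all 4 PGC arrays, a difference of at least 5.09-fold (adjusted p = 0.00226). It entered the test through the EpiSC arrays alone, where a rise was built in, so its call supports nothing about the list. Mmp14 averaged 10.64 ± 0.26 in EpiSCs and 8.29 ± 0.46 in PGCs (2.36 ± 0.35 SE, adjusted p = 0.00256). Vim averaged 9.91 ± 0.04 and Timp3 7.98 ± 0.36 in EpiSCs, against 7.50 ± 1.12 and 6.20 ± 0.75 in PGCs (adjusted p = 0.0286 for Vim and 0.0279 for Timp3). The Timp3 call rests on its brightest probe, since its other probe was detected on no array. EpiSC and PGC arrays did not overlap in any of these 4 genes, but the genes were picked by this test on the same arrays. The share of all probes without overlap was not counted, so this is no further support. Dcn, Mmp14 and Vim were also the 3 genes of 16 over 4-fold higher in EpiSCs than in wt day-15 PGCs (6.27% of all genes), at least 6.39-fold, 7.94-fold and 15.2-fold.

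The genes that fell were faint or broadly detected. Col5a1 averaged 7.63 ± 0.10 in EpiSCs and 8.77 ± 0.32 in PGCs (−1.15 ± 0.28, adjusted p = 0.0191), and Fbln2 5.83 ± 0.49 in EpiSCs and 7.12 ± 0.48 in PGCs (−1.29 ± 0.38, adjusted p = 0.0356). The other 3 were undetected on both EpiSC arrays and entered the test through PGC arrays alone. Loxl2, detected on all 4 PGC arrays, was at least 1.24-fold lower (adjusted p = 0.0346). Pdgfra (adjusted p = 0.00183) was detected on 1 and Bgn (adjusted p = 0.0258) on 2 of the 4 PGC arrays, and no fold could be given for either. The other 8 genes did not pass. Among them, Timp1 differed by 0.01 ± 0.40 and Mmp2 by −0.39 ± 0.58. With either EpiSC replicate left out fewer genes passed, and a lone EpiSC array has no spread of its own. Dcn, Loxl2, Pdgfra and Bgn entered through 1 group alone, where the direction was built in, so calls on them are no support. With wt PGC arrays only, 5 genes passed.

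**Figure D4:**
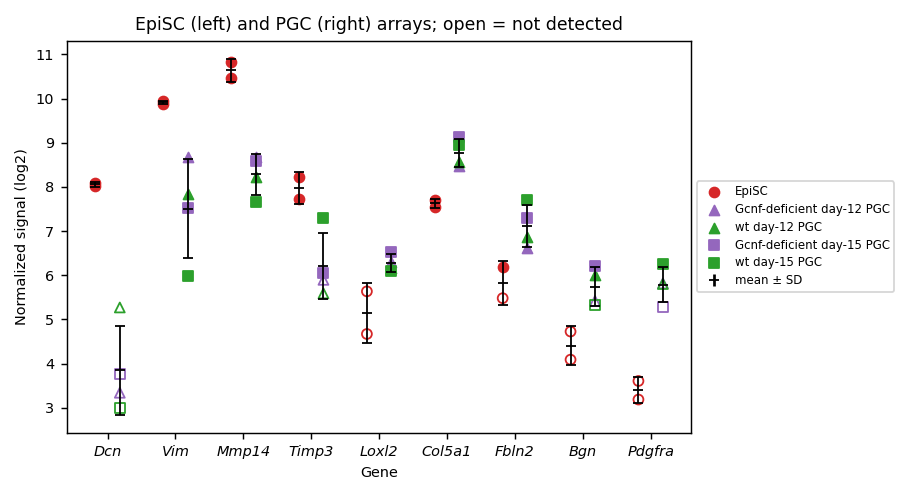
Normalized log2 signal of the 9 matrix genes that passed the test of EpiSCs against PGCs, for the 2 EpiSC arrays (left of each pair) and the 4 PGC arrays (right), with open symbols for undetected signals and black bars for mean ± SD. Dcn, Vim, Mmp14 and Timp3 lie higher in EpiSCs, and the 5 genes to their right lie lower, of which Pdgfra, Bgn and Loxl2 were undetected on both EpiSC arrays.

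Against the ESC arrays, EpiSCs had 18 of 29 matrix genes over 4-fold lower than wt ESCs (4.11% of all genes) and 1 of 21, Bgn, over 4-fold lower than Gcnf-deficient ESCs (3.44%). The 12 genes detected on ESC arrays alone could only be lower here, so they are no support. Bgn was at least 74.7-fold lower than in wt ESCs and at least 9.12-fold lower than in Gcnf-deficient ESCs. Over 2-fold lower than in Gcnf-deficient ESCs were 7 of 21 (12.4% of all genes), Bgn, Mgp (at least 3.96-fold), Lox (at least 3.42-fold), Timp2 (at least 2.37-fold), Pcolce (2.36-fold), Loxl2 (at least 2.22-fold) and S100a6 (2.21-fold). Over 2-fold higher were 4 of 21 (14.5%), Timp3 (3.96-fold), Mmp2 (3.28-fold), Dcn (3.0-fold) and Mmp14 (2.81-fold), each below its wt ESC signal other than Mmp14 on EpiSC replicate 1.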

How the data were processed

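RNA of 8 samples was hybridized to MouseRef-8 v2 BeadChips (Illumina), and titles gave the conditions. The authors amplified the RNA and read beads with BeadStudio 3.2. The deposited non-normalized table holds signal intensities of 25697 probes and the detection p-values of the authors' software. Another deposited table holds the authors' log2 values, background-corrected by the RMA model and quantile-normalized in lumi. Those steps were repeated here on the intensities (R 4.3.3, limma 3.58.1), giving r = 0.998 with the authors' values and a median of 4.72 here against 3.20 in theirs. Background correction widens folds near the detection limit.

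A signal at a detection p of 0.01 or more was raised to the lowest detected signal of its array (5.38 to 6.03 in log2) before a difference was taken, which gives the folds written "at least". No fold was given where both sides were undetected or where the bound was under 1. A difference between single arrays has no test and is given as a fold, with the share of all genes over the same fold. Tests used limma with arrays of other days, stages or genotypes in place of replicates, on probes detected on at least 1 of the 6 arrays of each fit, with a Benjamini-Hochberg adjusted p under 0.05 over those probes. The scripts were tested on simulated data. Members, gene lists and roles were chosen with earlier results of these data known. Values on every array (undetected signals in part as a range) are given for genes over 4-fold above every other array in wt ESCs, for genes detected on all arrays, and for genes within 2-fold of wt ESCs in PGCs or EpiSCs, and the others are given by counts or ranges. Other genes named are examples from their lists or the 5 genes of most similar profile. Acta2, Lyz2, Prrx1, Tcf21 and Osr1 were picked as well known markers. Col4a2, Ccn1, Ccn2, Fbln1, Tdgf1, Stra8, Otx2, Zeb1, Twist1 and Twist2 were named after their values were seen. Alternatives were other background, scaling, detection, fold, probe and array choices. The sources used here do not name the slides, and promoters not matched in the RefSeq table were left out.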

Additional observations from a re-analysis of the deposited data

Results flagged for a closer look

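Col5a1 and Fbln2 were singled out because both PGC days lay below the ESCs in wt cells and not below them in Gcnf-deficient cells. Col5a1 in Gcnf-deficient PGCs minus Gcnf-deficient ESCs was 0.23 (log2) on day 12 and 0.90 on day 15, while in wt PGCs minus wt ESCs it was −2.83 and −2.44. Fbln2 in Gcnf-deficient PGCs minus Gcnf-deficient ESCs was 0.026 on day 12 and 0.69 on day 15, while in wt PGCs minus wt ESCs it was −2.76 and −1.92. On day 12 both Gcnf-deficient differences lay within the SD of 0.26 between the EpiSC arrays, so they show no clear change. The difference between genotypes was not tested for either gene, and for Fbln2 it rests on the brightest of 3 probes. Each pair of differences shares 1 ESC array, and between the ESC arrays Col5a1 was 8.91-fold and Fbln2 8.18-fold lower without Gcnf.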

How the results depend on the processing

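No matrix gene result turned its direction. Of 159 values recomputed for the main counts, 117 stayed within 1.5 times the main value and 42 moved. The 15 genes over 4-fold above every other array in wt ESCs numbered 9 without background correction and 11 to 21 under the other settings, and all 15 were kept with the authors' values (17 genes), neqc (15) and median scaling (19). Genes over 4-fold apart between Gcnf-deficient and wt ESCs numbered 13 without background correction (20 as reported). Between Gcnf-deficient day-12 PGCs and ESCs (2) they numbered 1 with neqc, an offset of 50 or median scaling, 0 without background correction, and 7 at a 2-fold limit or with undetected signals as measured. On day 15 (5) they numbered 3 with the offset, 2 without background correction, and 8 at 2-fold or with undetected signals as measured. Between wt day-15 and day-12 PGCs (2) they numbered 1 with neqc or median scaling, 0 with the offset or without background correction, and 6 at 2-fold, where Gcnf-deficient day-15 and day-12 PGCs (0) had 4. Between Gcnf-deficient and wt PGCs at 2-fold, 1 gene differed on day 12 and 6 on day 15 (0 and 0), and 1 on day 15 with undetected signals as measured or detection p under 0.05. Between EpiSCs and Gcnf-deficient ESCs (1) they numbered 3 with the authors' values, 0 without background correction, 2 with median scaling, 11 at 2-fold, 5 with undetected signals as measured, 3 at detection p under 0.05, and 1 to 3 without either EpiSC replicate. Between EpiSCs and wt day-15 PGCs (3) they numbered 10 at 2-fold, 6 with undetected signals as measured and 5 at detection p under 0.05.

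Of the tests, PGCs against ESCs (3 genes) gave 6 with neqc, 6 with the offset and 10 with an intensity trend, and 0 without the wt ESC array, without day-12 arrays, without day-15 arrays or without the genotype block. EpiSCs against PGCs (9) gave 3 to 4 without either EpiSC replicate, where the lone array was assumed to vary like the PGC arrays, and 5 with wt PGC arrays only. The genotype test gave 0 under every setting. Fewer arrays leave fewer residual degrees of freedom, and otherwise the cause was not tested. No paired analysis was possible because the groups compared share fewer than 2 replicate numbers, which concerns pairing by replicate number only, since genotype and stage were used as blocks that match arrays by condition. Depth is set by signal over background: 12 of 29 genes were undetected on all PGC and EpiSC arrays, where only bounds can be given.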

Other observations

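Some listed genes that were not among the 35 were also highest in wt ESCs, and others were not. Of 15 further fibroblast matrix genes detected, 8 were highest there. Higher elsewhere were, among others, Ccn2 (11.34 in wt ESCs, 13.48 in Gcnf-deficient day-15 PGCs) and Ccn1 (8.01 and 10.11 on the same arrays). Fbln1 gave 9.45 in wt ESCs and 11.17 on EpiSC replicate 1. Over 4-fold above every other array in wt ESCs were 2 of the 15. These were Igfbp7 (7.71-fold), a secreted binder of growth factors, and Col16a1 (4.50-fold), a collagen of fibril surfaces. Prelp (at least 3.97-fold) and Ecm1 (3.76-fold) came next. Of 5 smooth muscle contractile genes detected, Acta2 (21.7-fold) and Actg2 (at least 9.40-fold) were over the limit. None of the endothelial (3 detected), macrophage (1), endoderm (11), pluripotency (9), germ cell (7) or primed epiblast (6) markers was.

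The basement membrane collagen Col4a1 was not highest in wt ESCs. Col4a1 gave 8.01 in Gcnf-deficient ESCs and 9.51 in wt ESCs, 10.88 (Gcnf-deficient) and 9.82 (wt) in day-12 PGCs, 11.16 and 9.05 in day-15 PGCs, and 6.80 and 6.88 in EpiSCs, so it was highest in Gcnf-deficient day-15 PGCs, where Col1a1, Col1a2 and Col3a1 were undetected.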
